A study of Mus musculus with 8 samples.

Results

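The genes described here are 41 genes of the cell cycle and of the p53 response, taken by name from the 45706 gene identifiers of a liver RNA-seq count table. They comprise 17 genes of DNA replication and S phase, 16 mitotic genes, 5 genes of D cyclins and cyclin-dependent kinase (CDK) inhibitors and 3 p53 response genes. All 41 were found in the table, and 40 had enough reads to be tested. Livers of 8 male mice were sequenced, 4 labelled *Srsf10-kd* and 4 labelled *Ctrl*, each from a separate sample. The strain is written C56B6/J in the labels and C57BL/6J in the study's methods. Per those methods, male mice received AAV2/8 by tail vein at 6 weeks of age and a high fat diet (HFD) was begun 4 weeks later. The series' description gives the diet as 60% fat by calories and its length as 12 weeks. The *Srsf10-kd* virus carried a mirE/shRNA against *Srsf10*, a gene for an SR protein of RNA processing, together with GFP under the chicken beta-actin (CBA) promoter, which is active in many cell types, so that the liver is reached through the virus and not through the promoter. The *Ctrl* group received the control virus and the same diet, so neither group was untreated or lean. The series therefore asks how liver RNA differs between these groups under the diet, and the values below give that comparison for the cell cycle.

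Cells copy their DNA in S phase, once the MCM helicase, loaded with the help of Cdc6 and Cdt1, has been activated in a step that needs CDKs. They divide in M phase under Cdk1 with the A and B cyclins, the Aurora and Polo kinases and the anaphase-promoting complex. D cyclins bring cells into the cycle through the RB and E2F proteins, CDK inhibitors hold them back, and p53 induces the CDK inhibitor *Cdkn1a*, *Ccng1* and its own antagonist *Mdm2*. Most hepatocytes of an adult liver are quiescent and re-enter the cycle after loss of tissue or injury, so mitotic RNA is scarce in resting liver, while *Ccnd1* and *Cdkn1a* are transcribed in cells that do not divide as well.

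The libraries held 50456404 to 59697241 counted reads each. Levels are given as CPM, a gene's reads relative to the library's size after TMM normalization, and levels of different genes are compared only per kilobase of exon. Groups were compared over 15491 genes with the quasi-likelihood test of edgeR, two-sided and with Benjamini-Hochberg adjustment, and every p credited to edgeR below is from this test. Hepatocyte markers dominated in every liver, with a summed level of 81312 to 115066 CPM for 8 genes. *Srsf10* RNA was at 34.3, 34, 41 and 36.5 CPM in *Srsf10-kd* 1 to 4 and at 31.6, 33.7, 35.3 and 30.9 CPM in *Ctrl* 1 to 4. The RNA was thus not lower where the label says knock-down (log2 fold change 0.15, adjusted p = 0.378 in edgeR), so *Srsf10-kd* stands below for a label alone. Of the 75-base stretches of *Srsf10* transcripts, 8.5% also occur in other transcripts, *Gm5446* among them, so part of its count is uncertain. Other assays of SRSF10 in livers of such mice were not analysed here. *Srsf10-kd* 3 stood apart from the other libraries, at -67.4 on a first principal component holding 44.8% of the variance, where the other *Srsf10-kd* livers lay between -11.5 and -1.92. On that component the *Ctrl* livers lay between 2.91 and 41.8, with *Ctrl* 4 at the upper end, so the labels differed in sign. Genes with a long exon length tended to lower levels in *Srsf10-kd* (Spearman's rho -0.48 across 15429 genes, which share the same 8 libraries), and log2 fold changes without that liver or with each library's trend on exon length removed are given for the genes named in full where they moved by more than 1.5 times or changed sign.

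The transcription of these genes is set through short elements near their starts, and the letters of 3 of them were searched on both strands of RefSeq windows of GRCm38.p6, from 250 bases before to 50 bases after each start. E2F sites were taken as TTTCCCGC, TTTGGCGC or TTTCGCGC, the cell cycle genes homology region (CHR) as TTTGAA or TTCGAA, and the NF-Y element as CCAAT. Windows were given for 33 of the 41 genes, 37 windows in all because a gene may have several starts, and none for *Mcm4*, *Gmnn*, *Ccne2*, *Ccna2*, *Aurkb*, *Foxm1*, *Ccnd1* and *Ccnd2*. E2F letters occurred in 6 of 15 S phase windows (40%), those of *Mcm3*, *Mcm5*, *Mcm6*, *Mcm7*, *Cdc6* and *Cdt1*, and in 1 of 13 mitotic windows, that of *Cdk1*, against 1.84% of all 32851 windows. CHR letters occurred in 11 of 13 mitotic windows (84.6%) and in 2 of 15 S phase windows (13.3%), against 19.2% of all. CCAAT occurred in 12 of 13 mitotic windows (92.3%) and 9 of 15 S phase windows (60%), against 37.4% of all. None of the 5 windows of *Ccnd3*, *Cdkn1b* and *Cdkn2c* and none of the 4 of the p53 response genes held E2F or CHR letters. In 1 window, of *Mcm7*, a CCAAT match overlapped an E2F match. Such matches describe the letters and do not show that a factor binds. The 180 bases before the start are printed for 4 genes, 5′ to 3′ on the minus strand. Matched letters of either strand are in capitals (ATTGG is CCAAT read on the other strand). *Mcm6* (chr1:128359706-128359885) shows the E2F pattern of the S phase windows, and *Cdk1* (chr10:69352913-69353092) holds all 3 elements. *Ccnb2* (chr9:70421555-70421734) shows CCAAT and CHR letters, as most mitotic windows do. Its printed CHR match lies upstream of its 3 CCAAT matches. The other CHR match of *Ccnb2* lies after the start, downstream of them, and is not printed. *Aurka* (chr2:172370571-172370750), the mitotic gene with the smallest p below, shows 2 CCAAT matches, its CHR letters lying after the start.
*Mcm6*: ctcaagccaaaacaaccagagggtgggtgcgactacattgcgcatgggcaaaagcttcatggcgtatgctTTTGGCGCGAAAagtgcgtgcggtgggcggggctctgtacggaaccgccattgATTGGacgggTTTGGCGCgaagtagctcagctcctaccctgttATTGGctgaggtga
*Cdk1*: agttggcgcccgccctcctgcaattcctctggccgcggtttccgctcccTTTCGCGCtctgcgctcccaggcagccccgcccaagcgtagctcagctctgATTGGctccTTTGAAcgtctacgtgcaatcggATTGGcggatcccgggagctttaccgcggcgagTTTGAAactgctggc
*Ccnb2*: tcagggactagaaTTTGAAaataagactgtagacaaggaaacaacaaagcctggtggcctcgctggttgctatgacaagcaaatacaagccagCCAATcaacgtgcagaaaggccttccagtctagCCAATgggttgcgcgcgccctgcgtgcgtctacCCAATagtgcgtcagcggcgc
*Aurka*: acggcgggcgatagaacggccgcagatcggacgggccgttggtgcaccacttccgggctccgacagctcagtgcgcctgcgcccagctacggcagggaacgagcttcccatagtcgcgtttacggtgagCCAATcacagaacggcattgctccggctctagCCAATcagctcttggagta

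Per kilobase of exon the median levels of the role groups were ordered, with the p53 response genes highest and the mitotic genes lowest. Single genes of the further lists set beside them below broke this order. Their highest levels were 13.5 CPM per kilobase among further S phase genes and 14.9 among further mitotic genes. The median level was 11.1 CPM per kilobase for the p53 response genes, 4.99 for the D cyclins and CDK inhibitors, 0.997 for the S phase genes tested and 0.161 for the mitotic genes. All 16 mitotic genes had a mean under 2 CPM and 10 of them under 1 CPM, so that a mitotic gene rested on few reads, from 5 to 17 reads per liver for *Bub1*, a spindle checkpoint kinase, to 66 to 111 for *Birc5*, a subunit of the chromosomal passenger complex. *Cdc6*, a loading factor of the MCM helicase, had 5 to 15 reads per liver (0.0961 to 0.262 CPM) and was not tested. The highest S phase gene per kilobase was *Pcna* (9.98 CPM per kilobase, mean of 8 livers) and the highest mitotic gene over all livers was *Ccnb2* (0.482), close to *Birc5* (0.472), which was the higher of the pair in the *Ctrl* livers (0.435 against 0.400). At the other end, *Ccng1* (14.6), *Ccnd1* (11.1) and *Cdkn1a* (11.1) had levels that did not differ beyond their spread over livers. In bulk tissue, fewer cells of a type and less RNA per cell cannot be told apart.

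**Figure D1:**
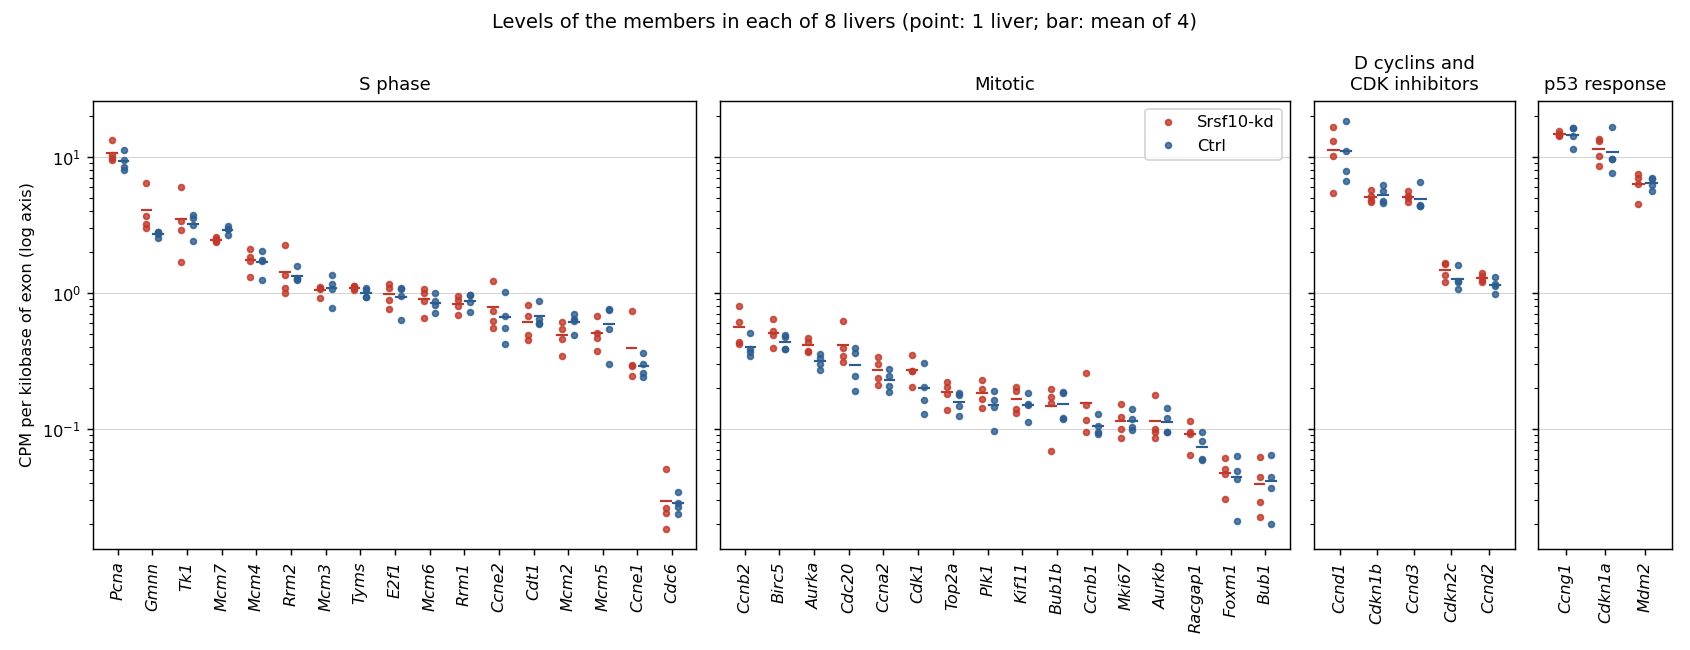
Level of each of the 41 genes in each liver, in CPM per kilobase of exon on a log axis, by role group, with 1 point per liver (red *Srsf10-kd*, blue *Ctrl*) and a bar at the mean of 4 livers. The mitotic genes lie below 1 CPM per kilobase in every liver and the p53 response genes above 4, and the red and blue points of most genes overlap.

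None of the 40 genes tested passed an adjusted p of 0.05 in edgeR, where 11 genes of all tested did (0.0710%), all lower in *Srsf10-kd*. Nor did any pass in DESeq2 or limma-voom, although these called 890 and 1814 genes of all tested, and the lowest adjusted p of any of the genes in any fit was 0.0611, for *Aurka* in limma-voom. At an unadjusted p under 0.05, 3 of the 40 stood out, *Gmnn* and *Aurka* with a higher level and *Mcm7* with a lower level in the *Srsf10-kd* livers, a smaller share than the 21.8% of all genes tested. The same 3 were the genes whose groups did not overlap, against 14.3% of all genes tested, 6.73% with *Srsf10-kd* higher and 7.53% with *Srsf10-kd* lower. The log2 fold change was above 0 in 29 of 40 genes, with a median of 0.09, against 51.3% and a median of 0.01 over all genes tested. By role it was above 0 in 10 of 16 S phase genes (median 0.07), in 13 of 16 mitotic genes (median 0.24), in 4 of 5 D cyclins and CDK inhibitors (median 0.05) and in 2 of 3 p53 response genes (median 0.01). The direction of the S phase and D cyclin medians hung on single livers, as they were -0.02 without *Srsf10-kd* 3 and -0.0072 without *Ctrl* 1. The mitotic median was above 0 in each fit that left out 1 liver, between 0.19 and 0.34. Genes of a role group share cells and elements and are not replicates, and these counts carry no test.

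**Figure D2:**
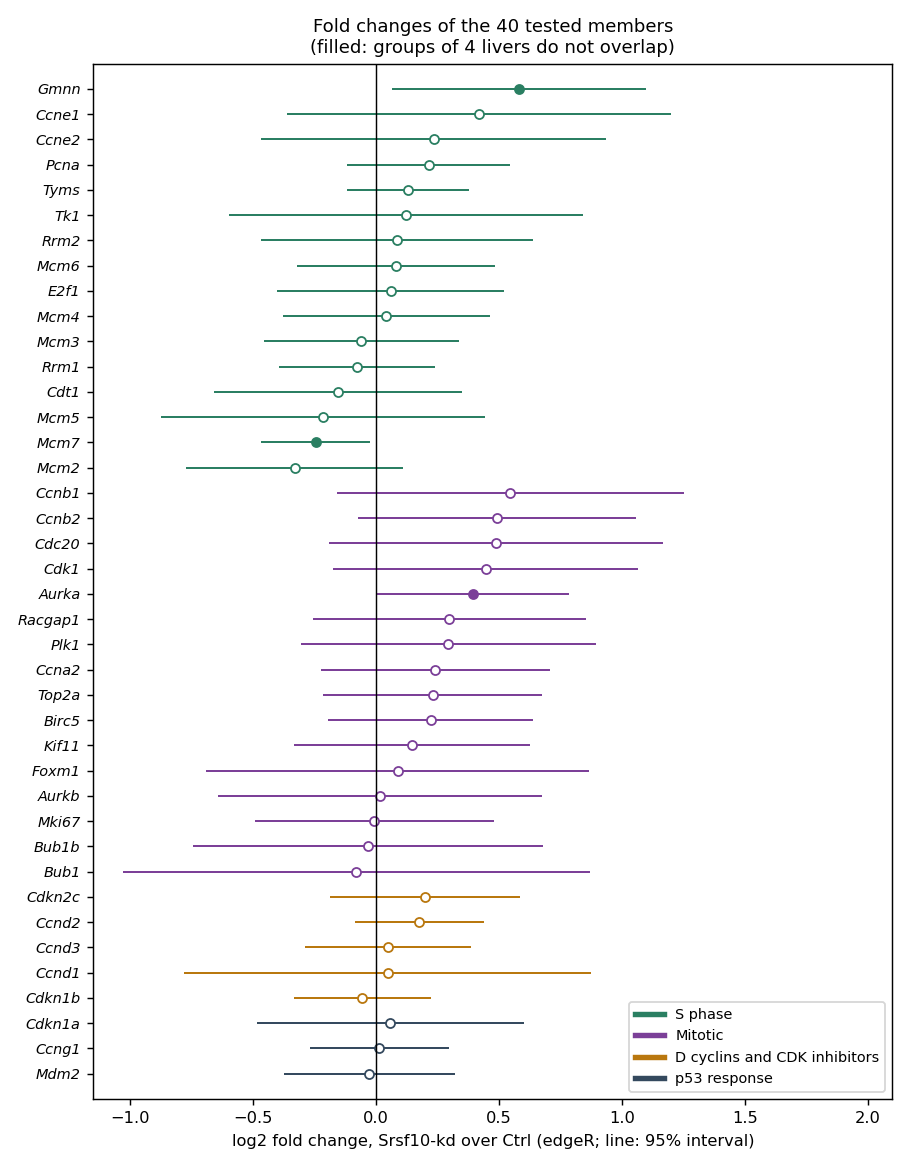
Log2 fold change of the 40 tested genes, *Srsf10-kd* over *Ctrl* (horizontal axis), with the 95% interval derived from the edgeR test, coloured by role group. Only the intervals of *Gmnn*, *Mcm7* and *Aurka*, drawn filled because their groups of 4 livers do not overlap, leave out 0.

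The S phase genes showed no common direction. *Gmnn* (ENSMUSG00000006715, chromosome 13 from 24751845 to 24761923) encodes geminin, which binds Cdt1 and blocks a further loading of the MCM helicase. Its level was 4.41, 5.38, 9.34 and 4.65 CPM in *Srsf10-kd* 1 to 4 and 3.96, 4.12, 4.10 and 3.70 CPM in *Ctrl* 1 to 4. Every liver labelled *Srsf10-kd* lay above every *Ctrl* liver, and *Srsf10-kd* 3 was far above the rest. The log2 fold change was 0.58 (SE 0.23, 95% interval 0.07 to 1.09), with an unadjusted p of 0.0299 and an adjusted p of 0.195 in edgeR and p = 0.0286 in a two-sided exact permutation test, the smallest that 4 livers against 4 can give. It was 0.28 without *Srsf10-kd* 3, 0.27 in limma-voom, which weights the libraries by quality, and 0.31 with each library's trend on exon length removed. *Srsf10-kd* 3 also had the lowest slope of log2 CPM on log2 exon length of the 8 libraries (0.497 against 0.592 to 0.759), so these values do not separate that liver from exon length. *Mcm7* (ENSMUSG00000029730, chromosome 5 from 138164583 to 138172422), a subunit of the helicase, was at 11.4, 10.6, 10.4 and 11 CPM in *Srsf10-kd* 1 to 4 and at 11.8, 13.1, 12.9 and 13.8 CPM in *Ctrl* 1 to 4. The groups did not overlap, although *Srsf10-kd* 1 and *Ctrl* 1 were close. It had a log2 fold change of -0.25 (SE 0.10, 95% interval -0.46 to -0.03), with an adjusted p of 0.196 in edgeR and p = 0.0286 in the exact permutation test, and it was between -0.29 and -0.21 with each liver left out in turn. Of the 75-base stretches of *Mcm7* transcripts, 13.2% also occur in other transcripts, and its exons overlap *Cops6*, *Ap4m1* and the microRNA genes *Mir25* and *Mir93*, so part of its count is uncertain.

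*Pcna* (ENSMUSG00000027342, chromosome 2 from 132249162 to 132253314), the sliding clamp of the replicative polymerases, was at 23.6, 24.5, 32.1 and 22.8 CPM in *Srsf10-kd* 1 to 4. In *Ctrl* 1 to 4 it was at 19.2, 22.6, 26.8 and 20.2 CPM. Number 3 was the highest liver of both groups, and the groups overlapped (25.7 ± 4.28 against 22.2 ± 3.38 CPM, SD, n = 4 each). Its log2 fold change was 0.21 (95% interval -0.11 to 0.54, adjusted p = 0.385 in edgeR), 0.09 without *Srsf10-kd* 3 and 0.08 with the trend on exon length removed. A pseudogene, *Pcna-ps2*, is among the transcripts that hold 13.9% of its 75-base stretches. The 6 helicase subunits *Mcm2* to *Mcm7* were spread from -0.33 (*Mcm2*) to 0.08 (*Mcm6*), with 2 above 0. *Srsf10-kd* 3 had the lowest level of *Mcm2*, *Mcm6* and *Mcm7* among the 8 livers, while *Ctrl* 1 had the lowest level of *Mcm3*, *Mcm4* and *Mcm5*. In contrast, *Srsf10-kd* 3 had the highest level of *Gmnn*, *Pcna*, *Tyms*, *Rrm2*, *Tk1*, *Ccne1* and *Ccne2*. These encode, beside geminin and the clamp, thymidylate synthase, the small subunit of ribonucleotide reductase, thymidine kinase and both E cyclins, which drive the entry into S phase with Cdk2. *Tk1* had the widest range of the 41 genes, 3.55-fold from 8.75 CPM in *Srsf10-kd* 1 to 31.1 CPM in *Srsf10-kd* 3, whereas the 4 *Ctrl* livers lay between 12.5 and 19.3 CPM. *Tyms* had the narrowest range, 1.21-fold, from 5.64 to 6.85 CPM. *Cdt1*, the partner of Cdc6, *Rrm1*, the large subunit of ribonucleotide reductase, and *E2f1*, the transcription factor of the G1/S step, had means of 1.90 ± 0.531, 9.10 ± 1.24 and 3.06 ± 0.568 CPM in the *Srsf10-kd* group. In the *Ctrl* livers the same genes were at 2.12 ± 0.419, 9.61 ± 1.26 and 2.93 ± 0.655 CPM (SD, n = 4). *Tk1*, *Tyms*, *Mcm2* and *Mcm6* are named here because of their values, as are the livers with the highest or lowest levels. Summed over the 17 S phase genes the level was 108.9 ± 13.9 CPM in the *Srsf10-kd* livers and 104.0 ± 11.3 CPM in the *Ctrl* livers, with overlap.

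The mitotic genes leaned to a higher level in the *Srsf10-kd* livers, and *Aurka* was the 1 gene of the 16 whose groups did not overlap. *Aurka* (ENSMUSG00000027496, chromosome 2 from 172356190 to 172370535) encodes Aurora A, a kinase of centrosomes and spindle poles. Its level was 1.1, 0.942, 0.934 and 1.18 CPM in *Srsf10-kd* 1 to 4 and 0.677, 0.834, 0.895 and 0.755 CPM in *Ctrl* 1 to 4. The groups did not overlap, by a margin between *Srsf10-kd* 3 and *Ctrl* 3 that is small beside the counts of 39 to 66 reads per liver. The log2 fold change was 0.39 (SE 0.17, 95% interval 0.01 to 0.78), with an unadjusted p of 0.0457 and an adjusted p of 0.222 in edgeR. The exact permutation test gave p = 0.0286, as it does for any gene whose groups do not overlap. With the trend on exon length removed, the log2 fold change of *Aurka* was 0.29. None of its 75-base stretches is shared with another gene.

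*Ccnb2*, a B cyclin and the mitotic gene with the highest level per kilobase over all livers, was at 0.645, 1.21, 0.934 and 0.659 CPM in *Srsf10-kd* 1 to 4 and at 0.590, 0.523, 0.776 and 0.562 CPM in *Ctrl* 1 to 4. *Srsf10-kd* 2 was the highest liver, and *Srsf10-kd* 1 and 4 lay inside the *Ctrl* range. The fit gave a log2 fold change of 0.49 (SE 0.25, 95% interval -0.07 to 1.05, adjusted p = 0.269 in edgeR), 0.28 without *Srsf10-kd* 2 and 0.27 with the trend on exon length removed. *Cdk1*, the kinase of mitotic entry, was at 0.994, 1.31, 1.71 and 1.32 CPM in *Srsf10-kd* 1 to 4 and at 0.799, 0.998, 1.49 and 0.632 CPM in *Ctrl* 1 to 4. Number 3 was again the highest liver of each group, and the groups overlapped. The fitted log2 fold change was 0.45 (SE 0.28, 95% interval -0.17 to 1.06, adjusted p = 0.344 in edgeR), between 0.28 without *Ctrl* 4 and 0.71 without *Ctrl* 3. *Top2a*, the topoisomerase that untangles sister chromatids, was at 1.24, 1.83, 1.98 and 1.62 CPM in *Srsf10-kd* 1 to 4 and at 1.32, 1.59, 1.65 and 1.12 CPM in *Ctrl* 1 to 4. Its groups overlapped, with a log2 fold change of 0.23 (95% interval -0.21 to 0.67, adjusted p = 0.486 in edgeR). It was 0.14 without *Srsf10-kd* 3, 0.13 without *Ctrl* 4, 0.35 without *Srsf10-kd* 1, 0.09 in limma-voom and 0.42 with the trend on exon length removed. *Mki67*, the gene of the proliferation marker Ki-67, was at 0.994, 1.52, 1.23 and 0.855 CPM in *Srsf10-kd* 1 to 4 and at 1.04, 1.41, 0.975 and 1.18 CPM in *Ctrl* 1 to 4. The lowest and the highest liver were both labelled *Srsf10-kd*, and the means were 1.15 ± 0.290 and 1.15 ± 0.190 CPM (SD, n = 4 each). Its log2 fold change of -0.01 had an interval of -0.49 to 0.48 (adjusted p = 0.988 in edgeR), so the counts allow a difference of this size in either direction. The sign turned with *Srsf10-kd* 1 or 4 or *Ctrl* 2 or 4 left out, up to 0.11 without *Srsf10-kd* 4, and the value was -0.04 without *Srsf10-kd* 3 and 0.21 with the trend on exon length removed.

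The remaining mitotic genes were spread from -0.08 (*Bub1*) to 0.55 (*Ccnb1*, the other B cyclin), each with an interval that held 0. *Cdc20*, an activator of the anaphase-promoting complex, was at 0.775 ± 0.260 CPM in the *Srsf10-kd* livers and 0.552 ± 0.181 CPM in the *Ctrl* livers. *Ccna2*, cyclin A2, was at 1.1 ± 0.232 against 0.930 ± 0.157 CPM, and *Plk1*, a Polo kinase, at 0.401 ± 0.0800 against 0.326 ± 0.0870 CPM. *Birc5* was at 1.73 ± 0.343 against 1.48 ± 0.189 CPM, *Racgap1*, of the central spindle, at 0.642 ± 0.144 against 0.521 ± 0.124 CPM, and *Kif11*, a spindle motor, at 1.23 ± 0.261 against 1.11 ± 0.213 CPM. For these genes the groups overlapped. *Aurkb*, the Aurora kinase of the chromosomal passenger complex (0.335 ± 0.124 against 0.331 ± 0.0673 CPM), the checkpoint kinase gene *Bub1b* (0.630 ± 0.237 against 0.648 ± 0.162 CPM) and *Foxm1*, a transcription factor of mitotic genes (0.270 ± 0.0720 against 0.253 ± 0.102 CPM, all SD, n = 4), had nearly equal means at 6 to 48 reads per liver. Of the 75-base stretches of *Ccnb1*, 18.9% also occur in pseudogenes such as *Ccnb1-ps*, and 10.8% of those of *Ccna2* occur in *Exosc9*. Summed over the 16 genes, the mitotic level was 11.6, 16.3, 14.4 and 13.6 CPM in *Srsf10-kd* 1 to 4 and 10.5, 12.7, 12.9 and 10.8 CPM in *Ctrl* 1 to 4. *Srsf10-kd* 1 lay inside the *Ctrl* range, and the other 3 livers of its group lay above it.

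**Figure D3:**
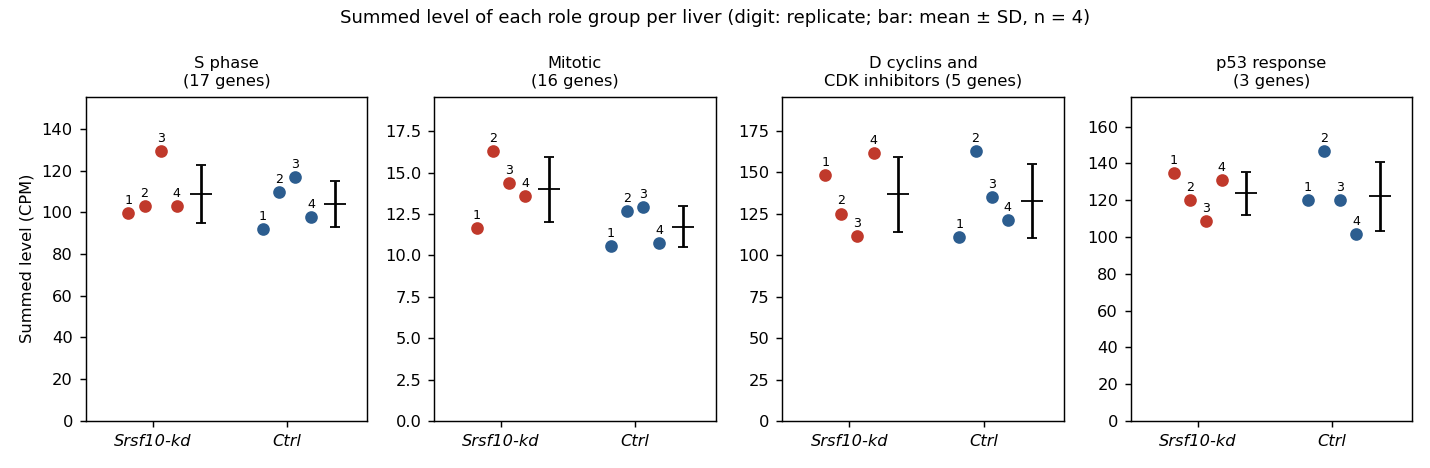
Summed level of each role group in each liver, in CPM from 0, with 1 point per liver marked with its replicate number and a bar at the mean ± SD of 4 livers. In the mitotic panel *Srsf10-kd* 2, 3 and 4 (13.6 to 16.3 CPM) lie above the *Ctrl* livers (10.5 to 12.9 CPM) and *Srsf10-kd* 1 does not, while in each other panel livers of both groups are mixed.

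The D cyclins and CDK inhibitors showed large differences between livers of 1 group and small ones between groups. *Ccnd1* (ENSMUSG00000070348, chromosome 7 from 144929931 to 144939925), cyclin D1, was at 61.7, 47.8, 25.6 and 77.6 CPM in *Srsf10-kd* 1 to 4 and at 37.3, 86.0, 51.4 and 31.3 CPM in *Ctrl* 1 to 4. It varied 3.03-fold within the *Srsf10-kd* livers and 2.75-fold within the *Ctrl* livers, and *Srsf10-kd* 3, the highest liver for *Gmnn*, *Pcna* and *Cdk1*, was the lowest for *Ccnd1*. Its log2 fold change was 0.05 with a wide interval (-0.78 to 0.87, adjusted p = 0.949 in edgeR). Single livers set its sign, as it was -0.19 and -0.03 with *Srsf10-kd* 4 or 1 left out, -0.13 and -0.08 with *Ctrl* 4 or 1 left out, and 0.41 without *Ctrl* 2. Without *Srsf10-kd* 3 it was 0.28, and 0.09 with the trend on exon length removed. *LTO1*, on the opposite strand, shares 20.6% of the 75-base stretches of *Ccnd1*. *Ccnd2* and *Ccnd3*, the other D cyclins, were at 12.1 ± 0.83 and 44.6 ± 3.71 CPM in the *Srsf10-kd* livers and at 10.7 ± 1.24 and 43.1 ± 9.50 CPM in the *Ctrl* livers. *Cdkn1b* and *Cdkn2c*, which encode the CDK inhibitors p27 and p18, were at 23.1 ± 2.04 and 3.92 ± 0.614 CPM against 24.0 ± 3.37 and 3.41 ± 0.607 CPM (SD, n = 4). The 4 genes overlapped between groups, and their log2 fold changes ran from -0.06 (*Cdkn1b*) to 0.20 (*Cdkn2c*).

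The p53 response genes were close to 0 with narrow intervals for *Ccng1* and *Mdm2*. *Ccng1* (ENSMUSG00000020326, chromosome 11 from 40748552 to 40755311), cyclin G1, was at 50.4, 54.7, 49.9 and 51.2 CPM in *Srsf10-kd* 1 to 4 and at 50.1, 56.7, 57.5 and 40 CPM in *Ctrl* 1 to 4. The *Srsf10-kd* livers all lay inside the range of the *Ctrl* livers, and the log2 fold change was 0.01 (SE 0.13, 95% interval -0.27 to 0.29, adjusted p = 0.956 in edgeR). *Mdm2* (ENSMUSG00000020184, chromosome 10 from 117688875 to 117710758), the ubiquitin ligase of p53, was at 37.8, 35.3, 22.9 and 31.8 CPM in *Srsf10-kd* 1 to 4 and at 35.3, 31.3, 28.6 and 34.8 CPM in *Ctrl* 1 to 4. Number 3 was the lowest liver of each group. *Mdm2* had a log2 fold change of -0.03 (SE 0.15, 95% interval -0.37 to 0.32, adjusted p = 0.930 in edgeR). *Cdkn1a* (ENSMUSG00000023067, chromosome 17 from 29090976 to 29100727), the CDK inhibitor p21, was at 46.8, 30.2, 35.8 and 48.0 CPM in *Srsf10-kd* 1 to 4 and at 34.5, 59.0, 34.1 and 26.8 CPM in *Ctrl* 1 to 4. *Ctrl* 2 was the highest liver and *Ctrl* 4 the lowest, as for *Ccnd1* among the *Ctrl* livers. For *Cdkn1a* the log2 fold change was 0.06 (SE 0.24, 95% interval -0.48 to 0.60, adjusted p = 0.900 in edgeR), which became 0.34 without *Ctrl* 2, 0.11 without *Srsf10-kd* 3, -0.08 without *Ctrl* 4 and 0.03 with the trend on exon length removed. A difference of 0.60 on the log2 scale, about the size fitted for *Gmnn*, thus lay at the edge of the interval of *Cdkn1a* and outside those of *Ccng1* and *Mdm2*. The signs of all 3 turned with some livers left out, to between -0.09 and 0.07 for *Ccng1* (below 0 without *Srsf10-kd* 2 or *Ctrl* 4, and 0.03 without *Srsf10-kd* 3), between -0.12 and 0.10 for *Mdm2* (above 0 without *Srsf10-kd* 3, *Ctrl* 1 or *Ctrl* 4) and between -0.08 and 0.34 for *Cdkn1a* (below 0 without *Srsf10-kd* 1, *Srsf10-kd* 4 or *Ctrl* 4). With the trend on exon length removed, *Ccng1* was at -0.02 and *Mdm2* at 0.04.

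Ranked within each gene, *Ctrl* 4 and *Ctrl* 1 were the lowest of the 8 livers most often, in 13 and 11 of the 40 genes, and *Srsf10-kd* 3 and 2 were the highest most often, in 12 and 8. Over all genes tested, *Srsf10-kd* 3 was the highest in 29.8% and the lowest in 26.9%, *Ctrl* 4 the highest in 21.2% and the lowest in 20%, *Ctrl* 1 the lowest in 10.2% and *Srsf10-kd* 2 the highest in 8.07%. *Srsf10-kd* 3 and *Ctrl* 4 were thus extreme libraries for genes at large. Among the 16 mitotic genes, *Srsf10-kd* 2 was the highest in 6, while *Ctrl* 1 and *Ctrl* 4 were each the lowest in 5. The mitotic genes deviated from their mean over all livers by a median of 0.27 log2 CPM in *Srsf10-kd* 2, 0.13 in *Srsf10-kd* 4, 0.08 in *Srsf10-kd* 3 and -0.15 in *Srsf10-kd* 1. In the *Ctrl* livers it was -0.30, 0.0094, 0.0061 and -0.25 for *Ctrl* 1 to 4. The spread within a group was as large as the gap between groups, with *Srsf10-kd* 1 below *Ctrl* 2 and *Ctrl* 3.

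Other genes of the same pathways were set beside these. Of 44 further S phase genes, 40 were tested, with 26 above 0 and a median log2 fold change of 0.11. With edgeR 0 passed an adjusted p of 0.05 and 4 had an unadjusted p under 0.05, 1 higher and 3 lower, where 21.8% of all genes tested did. *Pola1*, the catalytic subunit of the primase-bound polymerase alpha, was at 2.40 ± 0.118 against 3.2 ± 0.374 CPM (log2 fold change -0.41) without overlap. *Pole*, of the leading-strand polymerase epsilon, was at 0.820 ± 0.237 against 1.30 ± 0.229 CPM (-0.66) with overlap. *Rfc3*, of the complex that loads the Pcna clamp, was at 4.14 ± 0.439 against 3.26 ± 0.139 CPM (0.34) without overlap (SD, n = 4 each, *Srsf10-kd* first). Their adjusted p values in that test were 0.154, 0.161 and 0.181. Their exon lengths were 8.813, 11.16 and 3.611 kilobases, against a median of 4.635 for their list. The part of the trend on exon length in them was not tested.

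Of 45 further mitotic genes, 41 were tested, with 31 above 0 and a median of 0.34, and 0 passed an adjusted p of 0.05. At an unadjusted p under 0.05 there were 10, 9 higher and 1 lower, where 11.2% of all genes tested were higher and 10.6% lower by that rule. In 8 genes the *Srsf10-kd* livers all lay above the *Ctrl* livers, against 6.73% of all genes tested. *Cks2*, which binds Cdk1, was at 8.52, 8.03, 11.8 and 9.05 CPM in *Srsf10-kd* 1 to 4 and at 6.02, 6.39, 7.22 and 6.72 CPM in *Ctrl* 1 to 4 (log2 fold change 0.51, adjusted p = 0.130 in edgeR). Pseudogenes hold 26.9% of its 75-base stretches. *Pttg1*, the separase inhibitor securin, was at 25.5, 27.7, 49.4 and 27.7 CPM against 22.4, 20.1, 20.9 and 19.4 CPM (0.65, adjusted p = 0.143 in edgeR), with *Srsf10-kd* 3 far above the rest as for *Gmnn*. *Cks1b*, the paralog of *Cks2*, was at 4.45, 4.52, 6.05 and 3.94 CPM against 3.33, 3.86, 3.02 and 2.63 CPM (0.56, adjusted p = 0.15 in edgeR). These 3 are short, with 692, 2000 and 1126 bases of exon against a median of 5177 for their list, and the part of the trend on exon length in them was not tested. The 1 gene with a lower level at that threshold, *Hjurp*, a chaperone of the centromeric histone, is named because of its value. It was at 99.7 ± 21.7 against 149 ± 26.8 CPM (log2 fold change -0.58) and by itself made up much of the summed level of the list. *Hjurp* is long, with 8331 bases of exon.

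Among 34 further genes of CDK, RB and E2F control, 33 were tested, with 19 above 0 and a median of 0.04. None passed an adjusted p of 0.05 in edgeR, and 9 had an unadjusted p under 0.05, 2 higher and 7 lower, where 21.8% of all genes tested did, 11.2% higher and 10.6% lower. *Rbl2*, the RB relative p130 that represses cell cycle genes in quiescent cells, was at 30.1, 34.4, 24.9 and 32.7 CPM in *Srsf10-kd* 1 to 4 and at 37.2, 40.5, 42.8 and 47.0 CPM in *Ctrl* 1 to 4. The groups did not overlap (log2 fold change -0.46, adjusted p = 0.128 in edgeR), and 15.3% of its 75-base stretches also occur in other transcripts, *Aktip* among them. *Wee1*, the kinase that holds Cdk1 inactive, was at 5.26 ± 1.61 against 9.09 ± 2.02 CPM (-0.79, adjusted p = 0.134 in edgeR), with overlap. *Tfdp2*, a partner of E2F proteins, was at 11.6 ± 1.24 against 14.6 ± 0.447 CPM (-0.34, adjusted p = 0.148 in edgeR), without overlap (SD, n = 4). *Rbl2* and *Tfdp2* are long, with 7558 and 14029 bases of exon, against a median of 4.882 kilobases for the list. *Wee1* is shorter, with 3419 bases. The part of the trend on exon length in them was not tested. Of 38 further p53 response genes, all tested, 21 were above 0, with a median of 0.08. At an adjusted p of 0.05, 0 passed, and 7 had an unadjusted p under 0.05, 3 higher and 4 lower, no larger a share than the 21.8% of all genes tested. *Xpc*, a sensor of DNA damage in nucleotide excision repair, was at 20.1 ± 1.78 against 24.7 ± 0.879 CPM (-0.29) without overlap. *Fbxo32*, a ubiquitin ligase subunit known from muscle atrophy, was at 2.93 ± 0.788 against 4.22 ± 0.353 CPM (-0.53), and *Mdm4*, the relative of Mdm2 that inhibits p53, at 33.8 ± 5.08 against 45.6 ± 8.27 CPM (-0.43), both with overlap. The adjusted p of these 3 was 0.154, 0.166 and 0.177 in edgeR. They have 5494, 6976 and 14798 bases of exon, against a median of 3.29 kilobases for their list. The part of the trend on exon length in them was not tested.

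Markers of the liver's other cells were summed per liver. Cholangiocyte markers were higher in the *Srsf10-kd* livers, at 46.9 to 69.2 CPM against 31.8 to 39.3 CPM, and the sums did not overlap. The gene with the highest mean, 26.9 CPM against a list median of 4.20 CPM, weighed most in these sums. In 2 genes of the list the *Srsf10-kd* livers all lay above the *Ctrl* livers, against 6.73% of all genes tested. All 6 genes of that list had a log2 fold change above 0 (median 0.58), 0 passed an adjusted p of 0.05, 4 had an unadjusted p under 0.05 in edgeR, all higher (11.2% of all genes tested were higher by that rule), and none was at 0 in all livers. Their part in the levels of *Aurka*, *Gmnn* and the mitotic genes was not tested. Erythroid markers ran from 174 to 570 CPM against 163 to 221 CPM. The highest sum was in *Srsf10-kd* 3, the liver with the highest *Gmnn* and *Tk1*. *Srsf10-kd* 4 had the next highest, 445 CPM, with *Gmnn* at 4.65 and *Tk1* at 15.0 CPM. The erythroid sum was mostly globin RNA, and 5 of 5 tested genes were above 0. None passed an adjusted p of 0.05, and 2 had an unadjusted p under 0.05 in edgeR, both higher (11.2% of all genes tested were higher by that rule). The part of the erythroid sum in the S phase levels of *Srsf10-kd* 3 was not tested. The median exon length of the tested markers was 3.165 kilobases for cholangiocytes and 1.53 for erythroid cells. It was 4.15 kilobases for the 40 tested cell cycle and p53 response genes. The part of the trend on exon length in these marker lists was not tested. The other sums overlapped, with 161 to 285 against 205 to 292 CPM for Kupffer cells and macrophages, 4.10 to 6.19 against 4.69 to 6.45 CPM for lymphocytes, 0.356 to 1.5 against 0.562 to 0.972 CPM for neutrophils, 186 to 217 against 191 to 218 CPM for sinusoidal endothelial cells and 201 to 324 against 227 to 268 CPM for stellate cells.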

How the data were processed

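Poly(A)-selected liver RNA of 8 mice was sequenced. The authors aligned reads to GRCm38 with STAR 2.7.7a and deposited raw counts per gene, as STAR produced them, without normalization. The annotation release and the strand column are not given in the sources used here, so genes that overlap another gene or share 75-base stretches are uncertain. Samples were grouped by their labels. No source says how the same-numbered livers relate, and no 2 libraries were duplicates.

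Counts were analysed in R 4.3.3 with edgeR 4.0.16 (TMM, filterByExpr, quasi-likelihood fit on condition, two-sided, Benjamini-Hochberg adjusted p under 0.05 over 15491 genes). Log2 CPM used a prior count of 2. Exact permutation tests covered all 70 assignments of 8 livers to groups of 4. Genes were placed with GENCODE M21 on GRCm38 (45143 of 45706 identifiers). Alternatives were DESeq2, a tool the study used and run here as version 1.42.0 after the same filter, and limma-voom 3.58.1 with quality weights. Further ones were other scalings and filters, a fit blocked by replicate number and fits without 1 liver. Each library's lowess trend (span 0.5) on exon length or GC content was also removed.

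The 41 genes, the further lists, the tests and the alternatives were chosen with earlier results of these data known. Values per liver were printed for genes with an unadjusted p under 0.05 or groups without overlap, for the highest gene of each role per kilobase, and for *Mki67*, *Pcna*, *Cdk1*, *Top2a*, *Cdkn1a*, *Mdm2* and *Ccng1*, and up to 3 genes with the smallest p were named per further list. Exceptions are marked where they stand. Scripts were tested on simulated data. With 50456404 to 59697241 counts per liver, genes under 1 CPM rest on fewer than 60 reads in most livers. Nothing in the labels says that mice were handled apart beyond being separate samples, so p-values measure the spread between these samples.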

Additional observations from a re-analysis of the deposited data

Results flagged for a closer look

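Within each group of 4 livers, a liver lay far from the other 3 in 4 of the 80 groups examined (40 genes in 2 groups), where about 4 are what chance gives at Dixon's 95% critical value. *Mcm3*, a helicase subunit, was at 3.44 CPM in *Srsf10-kd* 3 against 4.01 to 4.13 CPM in the other livers labelled *Srsf10-kd*. That liver also had 1.95 CPM of *Ccne1*, an E cyclin, where the other livers of its group had 0.653 to 0.784 CPM. *Ctrl* 2 had 4.33 CPM of *Rrm2*, and the other *Ctrl* livers had 3.44 to 3.53 CPM. *Ctrl* 4 had 57.3 CPM of *Ccnd3*, and the rest of its group had 38.0 to 38.9 CPM. *Srsf10-kd* 3 and *Ctrl* 4 were also the libraries that most often held the highest or the lowest level over all genes tested, and the cause of these values was not tested.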

How the results depend on the processing

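Over 18 fits, 0 of the 40 genes passed an adjusted p of 0.05. Over all genes tested the count was 11, with 890 in DESeq2 (386 higher, 504 lower), 1814 in limma-voom (779 higher, 1035 lower), 46 without a filter on low counts (4 higher, 42 lower), and 0 to 544 with each liver left out: 0 when *Srsf10-kd* 1, 2 or 4 or *Ctrl* 2 was dropped, 4 for *Ctrl* 1, 5 for *Ctrl* 4, 64 for *Srsf10-kd* 3 and 544 for *Ctrl* 3. In the 4 fits of edgeR with 0, an unadjusted p under 0.05 was found for 2154 to 3656 genes. The cause was not tested. Genes of the 41 at an unadjusted p under 0.05 were 3, and 0 to 5 with each liver left out, with 0 without *Ctrl* 2 or *Ctrl* 4, 1 without *Ctrl* 1, *Srsf10-kd* 2 or *Srsf10-kd* 4, and 5 without *Srsf10-kd* 1. Of 204 alternative log2 fold changes of 12 genes, 182 held their direction and 22 reversed. In limma-voom *Ccng1* was -0.0078 and *Mdm2* 0.0525, with the trend on exon length removed *Ccng1* was -0.0164, *Mdm2* 0.0368 and *Mki67* 0.21, and with the trend on GC content removed *Mki67* was 0.0083. With each liver left out, *Ccnd1* ran from -0.19 to 0.41, *Ccng1* from -0.0885 to 0.0734, *Cdkn1a* from -0.083 to 0.34, *Mdm2* from -0.12 to 0.10 and *Mki67* from -0.17 to 0.11. The mitotic genes rested on 5 to 111 reads per liver, and depth as a limit was not tested.

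With the replicate number as a block, 59 genes were called (4 higher, 55 lower), 0 of them among the 41, of which 3 had an unadjusted p under 0.05 in edgeR, *Gmnn*, *Mcm7* and *Pcna* (0.0454), while *Aurka* had 0.0910. Same-numbered livers deviated together with correlations of -0.18, 0.21, 0.27 and 0.22 for numbers 1 to 4, and 5 of 8 livers correlated best with their own number, a hint from the data only.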
